A study of Mus musculus with 6 samples.

Results

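Periostin, transforming growth factor beta-induced protein and the tenascins C, W and X form a group of 5 secreted matrix genes (Postn, Tgfbi, Tnc, Tnn and Tnxb), found by symbol among the 24346 genes of the deposited tables. They are described here in mandibular condylar cartilage, which caps the jaw joint and drives growth of the mandible. Mutant mice, in which Ihh (Indian hedgehog) was deleted in craniofacial neural crest cells, gave 3 libraries, and control mice labelled fl/fl, the usual sign for a floxed gene, gave 3 libraries. The labels name neither the Cre driver nor the deleted part of Ihh, and give no age or sex, no number of animals per library and no other allele. Whether each library is a different animal is not stated, so errors measure only the spread between these libraries, which may be partly technical.

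The 5 genes were chosen from their FPKM values in the mutant against fl/fl comparison, that is, with its earlier results known. Their difference between the groups is therefore given as a description, with its size and error and without a p-value. Values are FPKM, fragments per kilobase of transcript and scaled to sequencing depth, which allows levels of different genes to be set side by side.

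Postn and Tgfbi are built of FAS1 (fasciclin) domains, bind collagens and integrins, and are induced by TGF-beta in many mesenchymal cells. Periostin is a product of periosteum and periodontal ligament, where it promotes collagen cross-linking. The tenascins are large glycoproteins with EGF-like and fibronectin type III repeats and a fibrinogen-like end. Tenascin C marks growing and mechanically loaded connective tissue, tenascin W (Tnn) is found in periosteum and around developing bone, and tenascin X (Tnxb) is a protein of mature connective tissue whose loss in humans causes a form of Ehlers-Danlos syndrome. In the condyle, periostin and tenascin C are known from the fibrous and progenitor layers above the chondrocytes.

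The 100 bases before the start of each gene that was lower in mutants are shown, since the results below turn on these 4 genes. The sequences are those of RefSeq for build GRCm38.p6, read 5′ to 3′ on the strand of the gene and ending before whichever start, RefSeq or GENCODE M21, lies further upstream. Capitals mark matches on either strand to any of 6 short motifs, namely TATAAA (the core of a TATA box), CAGACA (a Smad-binding form), TGANTCA (an AP-1 form), GGAATG (a TEAD form), GACCACCCA (a Gli form) and CCAAT.
Postn, chr3:54361007-54361106, plus strand: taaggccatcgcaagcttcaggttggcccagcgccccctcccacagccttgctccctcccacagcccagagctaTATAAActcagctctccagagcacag
Tgfbi, chr13:56609423-56609522, plus strand: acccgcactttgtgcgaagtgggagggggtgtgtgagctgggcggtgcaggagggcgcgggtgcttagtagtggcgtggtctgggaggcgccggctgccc
Tnc, chr4:64047016-64047115, minus strand: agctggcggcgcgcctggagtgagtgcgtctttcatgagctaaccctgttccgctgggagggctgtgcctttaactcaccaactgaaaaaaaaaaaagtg
Tnn, chr1:160153581-160153680, minus strand: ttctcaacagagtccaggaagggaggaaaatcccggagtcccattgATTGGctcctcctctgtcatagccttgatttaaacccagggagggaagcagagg
The Postn window held TATAAA, beginning 26 bases before the start, and 5.56% of 32851 promoter windows of this length held that motif. The Tnn window held CCAAT on the opposite strand 54 bases before the start, as 18.9% of windows did. The windows of Tgfbi and Tnc held none of the 6 motifs, and their base composition differed, with 70% G and C for Tgfbi and 53% for Tnc. In the window of Tnxb, the gene that was higher in mutants, TGANTCA began 55 bases before the start, a motif held by 2.73% of windows. None of the 5 windows held the Smad-binding, TEAD or Gli forms, which 6.44%, 4.71% and 0.067% of all windows held. No motif was shared between members in these windows.

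The libraries were alike in scale and unlike in sex and tissue makeup. Between 17761 and 18359 genes per library reached 1 FPKM, and steps between the lowest values put the libraries' depths at 0.998 to 1.20 in mutants and 0.993 to 1.33 in controls relative to control 1, with the absolute depth unknown. Xist, the X-inactivation RNA of female cells, measured 0.577 to 0.984 FPKM in mutants, against 29.5, 29.2 and 0.608 FPKM in controls 1, 2 and 3, so that only control 3 matched the mutants in sex. Ihh measured 2.18, 2.33 and 2.66 FPKM in mutants, against 3.73, 2.51 and 3.74 FPKM in controls. These low values lay under the 90th percentile of olfactory receptor genes (6.49 to 8.69 FPKM), with gene length not taken into account. The deletion was not assessed from them. All 9 chondrocyte markers that the tables hold, Col2a1 and Acan among them, had a lower mean in mutants, with a summed level of 134 to 190 FPKM in mutants and 345 to 472 FPKM in controls; Matn1 was listed at 0 in mutant 3. All 14 skeletal muscle markers had a higher mean in mutants, with a summed level of 13711 to 25417 FPKM in mutants and 3178 to 7596 FPKM in controls, and none was at 0. All 6 endothelial markers were likewise higher on average in mutants, at 139 to 156 FPKM summed in mutants and 46.3 to 90.7 FPKM in controls. The lists of other cells overlapped between the groups. Macrophage markers summed to 43.6 to 119 FPKM in mutants and 49.2 to 88.7 FPKM in controls, adipocyte markers to 306 to 682 FPKM in mutants and 72.6 to 317 FPKM in controls, erythroid markers to 1705 to 4893 FPKM in mutants and 1093 to 6116 FPKM in controls, and Schwann cell markers to 9.54 to 19.4 FPKM in mutants and 8.13 to 11.3 FPKM in controls. The exception was the list of epidermal markers, which summed to 17.9 to 18.9 FPKM in mutants and 12.3 to 16.5 FPKM in controls. Of these 5 markers 4 had a higher mean in mutants. Values were low, with Krt5 at 0 in control 2, and Krt14 and Krt1 at 0 in control 3. The part of these shifts in the results was examined only by the fits with a covariate or with libraries left out that are given with the values. The summed muscle level does not overlap between the groups, so a fit with muscle as a covariate cannot separate muscle level from group.

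**Figure D1:**
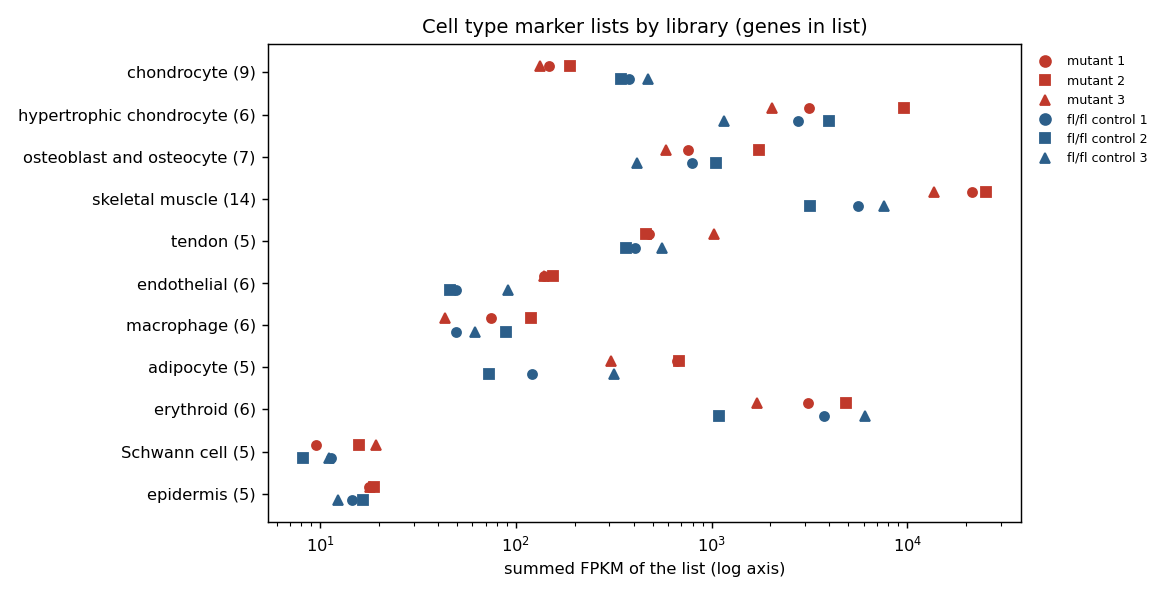
Summed FPKM of cell type marker lists (log axis; the number of genes in each list is in brackets) in each mutant library (red) and each fl/fl control library (blue). The 3 mutant libraries lie above the 3 controls for muscle and endothelial markers and below them for chondrocyte markers, while mutant 2 is the highest mutant library in 9 of the 11 lists.

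Postn, Tgfbi, Tnc and Tnn were lower in mutant than in fl/fl cartilage, and Tnxb was higher. For all 5 genes the 3 mutant values lay on one side of the 3 control values, as they did for 19.2% of the 18715 genes that reached 1 FPKM in 3 or more libraries (9.4% lower and 9.77% higher in mutants). Mean levels in mutants were 0.277 of the control level for Postn, 0.307 for Tgfbi, 0.400 for Tnc and 0.392 for Tnn, against 1.88 times the control level for Tnxb. In whole tissue, fewer cells that make a transcript and less transcript per cell cannot be told apart.

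**Figure D2:**
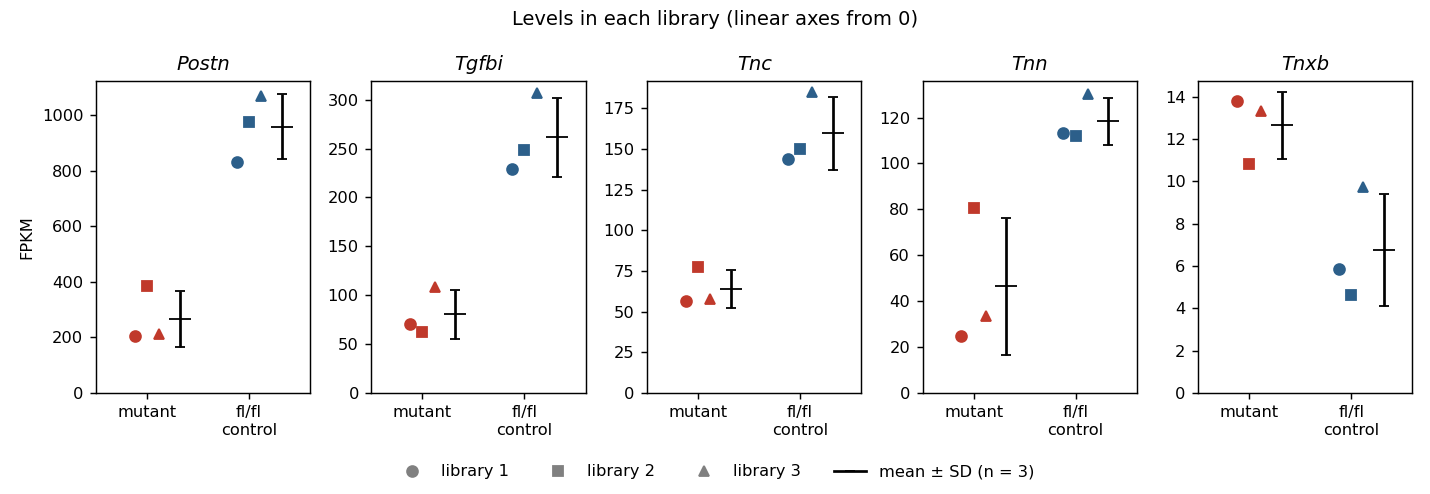
FPKM of the 5 genes in each mutant library (red) and each fl/fl control library (blue), with mean and SD beside the points (n = 3 per group; linear axes from 0, scaled per gene). The 4 genes on the left are lower in all mutants and Tnxb is higher in all mutants, and the distance between the nearest libraries is smallest for Tnxb.

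Postn (chr3:54361109-54391037, plus strand, GENCODE M21, mm10) was the most abundant member. It measured 204, 384 and 211 FPKM in mutants 1, 2 and 3, against 834, 978 and 1068 FPKM in controls 1, 2 and 3. Mutant 2 was the highest mutant, and its value still lay 2.17-fold under the lowest control. Ranked by level among the 18715 genes, Postn took places 234 to 414 in mutants and places 39 to 46 in controls. It thus left the 50 most abundant transcripts of the controls without ceasing to be an abundant transcript in mutants.

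The log2 fold change of Postn was -1.90 ± 0.26 (SE, on the scale of log2(FPKM + 1)). It lay between -2.20 and -1.74 when any 1 library was left out. Against control 3 alone, the control of matching sex, the mutant mean was 0.249 of the control value, and against controls 1 and 2 it was 0.294. With the mean of the skeletal muscle markers as a covariate, the log2 fold change was -2.63 ± 0.56. Without controls 1 and 2 it was -2.06 ± 0.43, and in neither of these fits did Postn pass the threshold over all genes.

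Tgfbi (chr13:56609523-56639562, plus strand) is the other member with FAS1 domains. It measured 70.5, 61.9 and 108 FPKM in mutants, against 229, 248 and 307 FPKM in controls. The highest mutant was here mutant 3, and the groups were 2.12-fold apart at their nearest libraries. The log2 fold change was -1.72 ± 0.24 and lay between -1.96 and -1.56 when any 1 library was left out. The mutant mean was 0.262 of control 3 and 0.336 of controls 1 and 2. With the muscle covariate the log2 fold change was -1.15 ± 0.54, with a larger standard error, and this fit cannot separate muscle level from group.

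Tnc (chr4:63959785-64047015, minus strand) encodes the tenascin of growing connective tissue. It measured 56.5, 77.3 and 57.8 FPKM in mutants, against 144, 150 and 185 FPKM in controls. Mutants 1 and 3 were nearly equal, mutant 2 was higher, and the groups were 1.86-fold apart at their nearest libraries. The log2 fold change was -1.31 ± 0.20, within -1.46 to -1.20 when any 1 library was left out, and -1.85 ± 0.43 with the muscle covariate. Of the exon bases of Tnc, 2.27% (176 bases) overlap 8030451A03Rik on the opposite strand, which these libraries would not separate.

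Tnn (chr1:160085029-160153580, minus strand) encodes tenascin W and varied most among mutants. It measured 24.9, 80.7 and 33.7 FPKM in mutants, against 113, 112 and 130 FPKM in controls. The coefficient of variation was 64.6% in mutants and 8.70% in controls, and mutant 2 lay only 1.39-fold under the lowest control. The log2 fold change was -1.51 ± 0.37. Without mutant 2 it was -1.99 ± 0.22, and without mutant 1 it was -1.16 ± 0.34. With the muscle covariate it was -2.60 ± 0.84.

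Tnxb (chr17:34670535-34719815, plus strand) was the only member that was higher in mutants and the least abundant one. It measured 13.8, 10.8 and 13.3 FPKM in mutants, against 5.87, 4.64 and 9.71 FPKM in controls. Control 3 was the highest control, 1.11-fold under the lowest mutant. The log2 fold change was 0.86 ± 0.28. It was 0.34 ± 0.32 when controls 1 and 2, the libraries with Xist, were left out, and 0.37 ± 0.32 with Xist as a covariate. The mutant mean was 1.30 times control 3 and 2.41 times the mean of controls 1 and 2, so the excess over the control of matching sex was about as large as its standard error.

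In FPKM, the level of Tnxb also lay close to that of genes which this tissue should not use. FPKM divides by transcript length. At equal FPKM, a long gene such as Tnxb (12209 exon bases) rests on more fragments than a short one. Closeness to these genes therefore does not show that Tnxb is silent. Olfactory receptor genes, mostly silent outside the nose, had a 90th percentile of 6.49 to 8.69 FPKM over the 6 libraries. Tnxb exceeded 94.8% to 95.3% of these 1120 genes in mutants and 80.7% to 94.4% of them in controls. Controls 1 and 2 were under the 90th percentile of their own libraries. The other members exceeded at least 99.1% of them in every library.

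**Figure D3:**
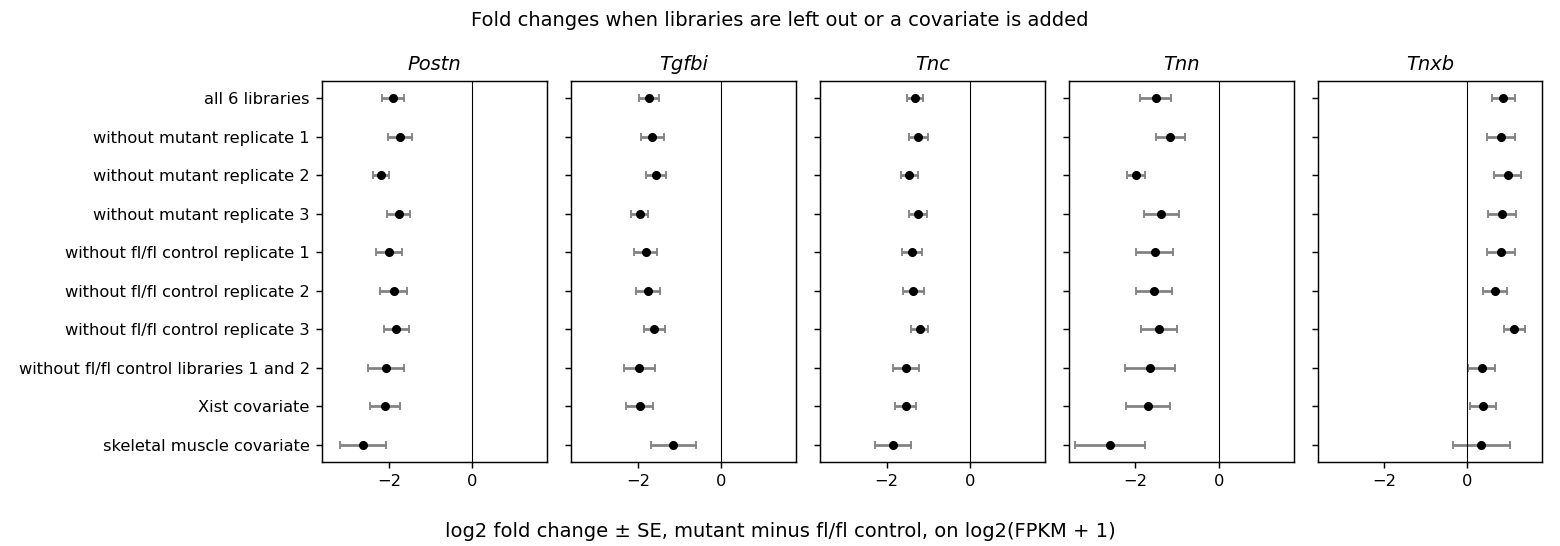
Log2 fold changes with standard errors (mutant minus fl/fl control, on log2(FPKM + 1)) of the 5 genes with all 6 libraries, without each library, without controls 1 and 2, and with Xist or the skeletal muscle markers as a covariate. The estimates of Postn, Tgfbi, Tnc and Tnn stay below 0 in each fit shown. That of Tnxb is 0.34 to 0.37 with Xist or muscle as a covariate or without controls 1 and 2. The standard error of Tnxb in the muscle fit is 0.69, and that fit cannot separate muscle level from group.

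In the fit over all 18715 genes (limma, Benjamini-Hochberg adjusted p below 0.05), 3 of the 5 members passed, Postn, Tgfbi and Tnc, all lower, where 1.24% of all genes passed in either direction and 0.465% passed as lower. These calls are among the values that led to the choice of the members. Leaving out mutant 1, control 1 or control 2 left 0 members passing, where 19, 13 and 20 of all 18715 genes passed. Leaving out mutant 3 or control 3 left 3 members, where 414 and 199 of all genes passed. Without mutant 2 the number of members was also 3, with Tnn passing in place of Tgfbi, where 57 of all genes passed. With Xist or muscle as a covariate no member passed, where 2 of all genes passed with each. In these fits, and without controls 1 and 2, the log2 fold changes of the 4 lower members stayed at -1.15 or below.

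The members kept one order of level in all 3 controls, namely Postn, Tgfbi, Tnc, Tnn and Tnxb, with no overlap in FPKM between neighbours over these libraries. Mutants 1 and 3 had the same order. In mutant 2 Tnn (80.7 FPKM) stood above Tnc (77.3 FPKM) and Tgfbi (61.9 FPKM). In mutants, therefore, the ranges of Tgfbi, Tnc and Tnn overlapped, and these neighbours did not differ beyond their spread. Together the 5 genes made up 0.0568% to 0.0832% of all summed FPKM in mutants and 0.228% to 0.267% in controls.

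Ratios among Postn, Tgfbi, Tnc and Tnn varied less between controls than between mutants. The ratio of Postn to Tgfbi was 2.90, 6.20 and 1.95 in mutants, against 3.64, 3.94 and 3.48 in controls. Its mean was 3.68 in mutants and 3.69 in controls, so the FAS1 genes differed between the groups by like amounts on average while single mutants did not. The ratio of Tgfbi to Tnn was 2.83, 0.768 and 3.21 in mutants, against 2.03, 2.22 and 2.35 in controls. The ratio of Tnc to Tnn was 2.27, 0.959 and 1.72 in mutants, against 1.27, 1.34 and 1.42 in controls. The ratio of Postn to Tnc was 4.08 ± 0.77 in mutants and 6.03 ± 0.43 in controls (SD, n = 3 each), and these groups did not overlap. Ratios to Tnxb also spread in controls, with Postn to Tnxb at 22.0 ± 11.6 in mutants and 154 ± 51.5 in controls (SD, n = 3 each). The ratio of Tgfbi to Tnxb was 6.32 ± 1.59 in mutants and 41.4 ± 11.2 in controls, that of Tnc to Tnxb 5.20 ± 1.69 in mutants and 25.3 ± 6.64 in controls, and that of Tnn to Tnxb 3.93 ± 3.07 in mutants and 18.9 ± 5.35 in controls.

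Within the mutants, Postn, Tnc and Tnn deviated the same way in each library, and Tgfbi did so in mutant 1 and not in mutants 2 and 3. In mutant 1 the deviations from the mutant mean were -0.32 log2 units for Postn, -0.16 for Tnc, -0.69 for Tnn and -0.14 for Tgfbi. Mutant 2 lay above the mutant mean by 0.59 log2 units for Postn, 0.29 for Tnc and 0.96 for Tnn, and its deviation for Tgfbi was -0.33. Mutant 3 showed the opposite, with 0.47 for Tgfbi and -0.27, -0.13 and -0.27 for Postn, Tnc and Tnn. In the controls all 5 genes were highest in control 3. Mutant 2 had the highest sum among mutants in 9 of the 11 marker lists, chondrocyte, muscle and endothelial lists included, and the highest FPKM summed over all genes of the 6 libraries (738395). The 6 hypertrophic markers, of which Spp1 made up most, summed to 3156, 9586 and 2045 FPKM in mutants 1, 2 and 3. The 7 osteoblast and osteocyte markers, of which Ibsp made up most, summed to 758, 1745 and 585 FPKM in the same order. Mutant 3 had the highest sum of the 5 tendon markers, at 1029 FPKM against 478 and 463 FPKM in mutants 1 and 2. Fmod made up most of this sum, at 804 FPKM in mutant 3 against 372 and 374 FPKM in mutants 1 and 2. Among mutants, Scx, Tnmd and Kera were also highest in mutant 3, and Mkx in mutant 1. In controls these lists summed to 1161 to 3991 FPKM, 414 to 1049 FPKM and 365 to 556 FPKM, in the order hypertrophic, osteoblast and tendon. The hypertrophic markers were split, so their sum mainly describes Spp1. Of the 6, 3 had a higher mean in mutants (Spp1, Mmp13 and Alpl), while Panx3, Col10a1 and Ihh had a lower one. Panx3 measured 30.8 to 48.1 FPKM in mutants and 131 to 182 FPKM in controls. Col10a1 was likewise lower in every mutant than in every control, while the values of Ihh overlapped. The part of these cell types in the deviations of Postn, Tnc, Tnn and Tgfbi was not tested.

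**Figure D4:**
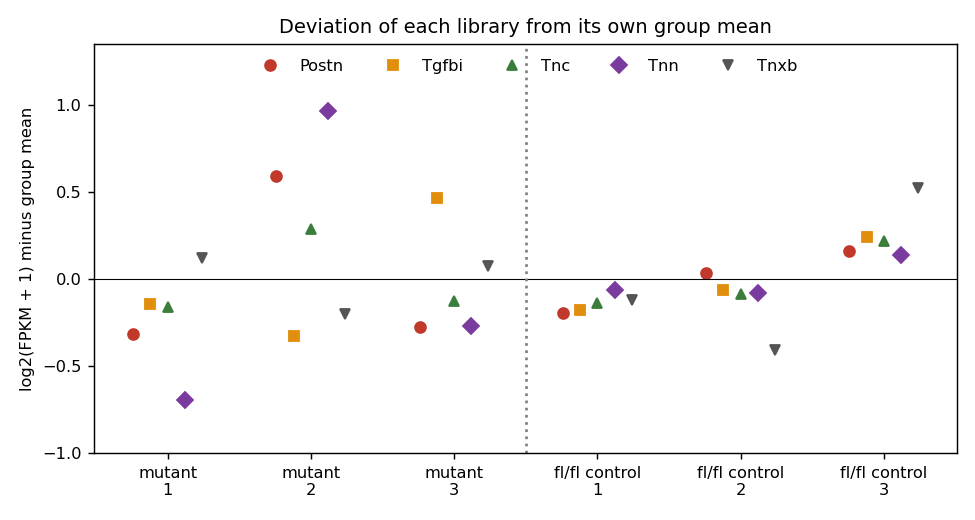
Deviation of each library from the mean of its own group, on the scale of log2(FPKM + 1), for the 5 genes (mutants left of the dotted line, fl/fl controls right of it). Postn, Tnc and Tnn lie above 0 in mutant 2 while Tgfbi lies below it, and all 5 genes lie above 0 in control 3.

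The genes whose levels followed each member most closely over the 6 libraries were taken from 10142 named genes with a mean of at least 5 FPKM, by Pearson's r on log2(FPKM + 1). The 6 libraries fall into the mutant and control groups, so any gene that differs between the groups scores high. For Postn they were the mitotic kinase Cdk1, the secreted gene Cthrc1 and the nucleolar gene Npm1 (r of 0.994 to 0.996). Cthrc1 averaged 118 ± 42.2 FPKM in mutants and 523 ± 48.6 FPKM in controls. For Tnc they were Npm1, the glycolytic enzyme Eno1 and the Wnt receptor Fzd1 (r of 0.994 to 0.997). Tgfbi was followed by Acaca, a fatty acid synthesis enzyme, the septin Sept2 and Trim59 (r of 0.993 to 0.999), none of which followed Postn, Tnc or Tnn among their first 3. Tnn was followed by Elp3, Fam118a and Tspyl2 (r of 0.988 to 0.994). Tnxb was followed by the small heat shock gene Hspb8, the caveolin Cav2 and Klhl30 (r of 0.984 to 0.986), all higher on average in mutants, with Cav2 at 52.6 ± 3.99 FPKM in mutants and 32.1 ± 7.29 FPKM in controls.

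Related genes were tested in the same fit, in lists written with earlier results of these data known. Lists of family members, receptors, matrix partners, regulators and fibrous layer genes held 111 genes tested, of which 6 fell and 1 rose. Over all genes tested, the shares to set beside this count and those of each list were 0.465% lower and 0.775% higher. The median log2 fold change of the 111 genes was 0.07, beside 0.00 for all genes tested. The other tenascin, Tnr, and the other FAS1 genes, the scavenger receptors Stab1 and Stab2, did not pass (limma adjusted p of 0.748 or more). Tnr, a tenascin of the nervous system, measured 1.88 to 2.80 FPKM in mutants and 2.41 to 2.70 FPKM in controls. Stab1 measured 2.63 to 6.40 FPKM in mutants and 2.28 to 3.40 FPKM in controls, and Stab2 1.08 to 1.93 FPKM in mutants and 0.857 to 3.16 FPKM in controls. All 3 lay under the 90th percentile of the olfactory genes in every library, with gene length not taken into account.

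Of 17 tested receptor genes 1 fell and none rose, with a median log2 fold change of -0.21. Anxa2, an annexin that binds tenascin C at the cell surface, fell to 569 ± 78.4 FPKM in mutants, against 1160 ± 126 FPKM in controls (log2 fold change -1.03 ± 0.18, limma adjusted p = 0.0377). Egfr, which the EGF-like repeats of tenascin C can engage, measured 3.89 ± 1.59 FPKM in mutants and 7.82 ± 2.31 FPKM in controls (limma adjusted p = 0.294). The integrin genes of the main periostin receptors did not pass. Itgav measured 8.10 to 10.7 FPKM in mutants and 10.7 to 16.3 FPKM in controls, Itgb3 4.98 to 15.8 FPKM in mutants and 7.97 to 9.55 FPKM in controls, and Itgb5 27.7 to 78.4 FPKM in mutants and 46.0 to 92.7 FPKM in controls. These 3 integrins were named after their values were seen.

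Of 19 tested matrix partners 3 fell and none rose, with a median log2 fold change of -0.33. Col12a1, a fibril-associated collagen that binds tenascins, measured 45.9, 108 and 57.4 FPKM in mutants, against 194, 208 and 222 FPKM in controls (log2 fold change -1.64 ± 0.29, limma adjusted p = 0.0377). Like Postn, Tnc and Tnn, it was highest among the mutants in mutant 2. That library also had the highest mutant sum in 9 of the 11 marker lists. Col6a3, a chain of the type VI collagen that Tgfbi binds, fell to 53.6 ± 13.2 FPKM in mutants, against 117 ± 8.32 FPKM in controls (limma adjusted p = 0.0462). Col6a1 and Col6a2, other chains of this collagen, overlapped between the groups and did not pass. Their log2 fold changes were -0.37 and -0.19 (limma adjusted p of 0.682 and 0.859), and both were named after their values were seen. Acan, the cartilage lectican, fell to 11.7 ± 2.65 FPKM in mutants, against 29.1 ± 3.38 FPKM in controls (limma adjusted p = 0.037), with the chondrocyte markers, of which it is one.

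Several other partners were not called. Col1a1, a chain of the main fibrillar collagen, measured 1583, 3838 and 2213 FPKM in mutants, against 2152, 1686 and 2429 FPKM in controls, with a log2 fold change of 0.20 ± 0.31 (limma adjusted p = 0.848). Fn1, the fibronectin gene, measured 84.0 to 119 FPKM in mutants and 94.1 to 113 FPKM in controls. Bmp1, a protease that binds periostin and activates lysyl oxidase, measured 51.4, 92.7 and 52.4 FPKM in mutants, against 81.6, 72.8 and 85.2 FPKM in controls. These genes were named after their values were seen. Among mutants, Col1a1 and Bmp1 were highest in mutant 2, as were the sums of 9 of the 11 marker lists.

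Other matricellular genes leaned the other way, without a call. Of 18 tested, none passed in limma, where 1.24% of all genes passed. Log2 fold changes were positive for 15 and negative for 3, with a median of 0.44 beside 0.00 for all genes tested. They ranged from -0.73 (Thbs3, lower in all mutants) to 1.97. Fbln2, a fibulin of elastic and basement membrane matrix, measured 56.5 ± 12.7 FPKM in mutants and 28.1 ± 6.15 FPKM in controls (limma adjusted p = 0.0973). Sparcl1, an anti-adhesive relative of Sparc, measured 98.9 ± 16.4 FPKM in mutants and 46.0 ± 22.0 FPKM in controls (limma adjusted p = 0.109).

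Genes of TGF-beta signalling, which can induce Postn, Tgfbi and Tnc, showed 1 call among 21 tested, and their median log2 fold change was 0.03. The called gene was Acta2, a smooth muscle actin and TGF-beta target, at 58.8 ± 6.63 FPKM in mutants and 123 ± 4.67 FPKM in controls (log2 fold change -1.05 ± 0.17, limma adjusted p = 0.0296). Tgif1, a corepressor of Smads, measured 12.7 to 27.9 FPKM in mutants and 11.1 to 14.5 FPKM in controls (limma adjusted p = 0.446). The ligands did not pass, with Tgfb1 at 0.350 to 4.61 FPKM in mutants and 1.94 to 2.97 FPKM in controls, Tgfb2 at 16.3 to 26.0 FPKM in mutants and 20.0 to 28.1 FPKM in controls, and Tgfb3 at 26.1 to 48.7 FPKM in mutants and 26.5 to 46.1 FPKM in controls. The ligands were named after their values were seen.

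Transcription factors that are known to act on these genes gave no call among 17 tested in limma, with a median log2 fold change of 0.10. Ets2 measured 20.8 ± 0.69 FPKM in mutants and 10.2 ± 2.04 FPKM in controls (limma adjusted p = 0.0645), and Sox9, the chondrocyte master factor, 23.2 ± 8.01 FPKM in mutants and 43.5 ± 6.15 FPKM in controls (limma adjusted p = 0.14). Twist1, which can activate Postn, measured 10.3, 17.5 and 14.4 FPKM in mutants, against 19.1, 15.3 and 20.6 FPKM in controls. Prrx1, which can activate Tnc, measured 30.6 to 49.0 FPKM in mutants and 35.9 to 50.9 FPKM in controls. Both ranges overlapped between the groups, and both genes were named after their values were seen. Fosl1, at 0 to 0.882 FPKM, was not tested.

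Among 17 tested genes of periosteum and the fibrous layer, 1 fell and 1 rose. Log2 fold changes were positive for 11 and negative for 6, with a median of 0.65 beside 0.00 for all genes tested. Most of this list thus leaned opposite to Postn, Tgfbi, Tnc and Tnn. Cthrc1, a secreted gene of collagen-making cells, fell (log2 fold change -2.19 ± 0.25, limma adjusted p = 0.0125), at 98.4, 166 and 88.4 FPKM in mutants, against 466, 550 and 551 FPKM in controls. Prg4, the gene of lubricin at joint surfaces, rose to 53.6 ± 4.86 FPKM in mutants, against 12.1 ± 2.21 FPKM in controls (log2 fold change 2.07 ± 0.20, limma adjusted p = 0.00943). Aspn, a small proteoglycan of periosteum and named after its values were seen, measured 140, 353 and 219 FPKM in mutants, against 419, 515 and 558 FPKM in controls (limma adjusted p = 0.119). Pdgfra, a general marker of mesenchymal cells named after its values were seen, measured 12.5 to 16.9 FPKM in mutants and 8.72 to 14.2 FPKM in controls, with a higher mean in mutants.

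Calls among related genes changed with the library left out, as did the number of calls over all genes, which was 13 to 414. Of the 7, Prg4 passed whichever library was left out (limma adjusted p of 0.00855 to 0.0469). Cthrc1 passed without mutant 2, mutant 3 or control 3 and not without mutant 1, control 1 or control 2 (0.0602, 0.0619 and 0.0541). Anxa2, Col6a3 and Acta2 passed only without mutant 3, Col12a1 only without mutant 2, and Acan in none of the 6 fits without 1 library. Over all 111 related genes, genes outside the 7 included, the number of calls was 1 without mutant 1, 3 without mutant 2, 6 without mutant 3, and 1, 1 and 3 without controls 1, 2 and 3. With Xist or muscle as a covariate, or without controls 1 and 2, none of the 7 passed, and all 7 kept their direction in these and the other fits.

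**Figure D5:**
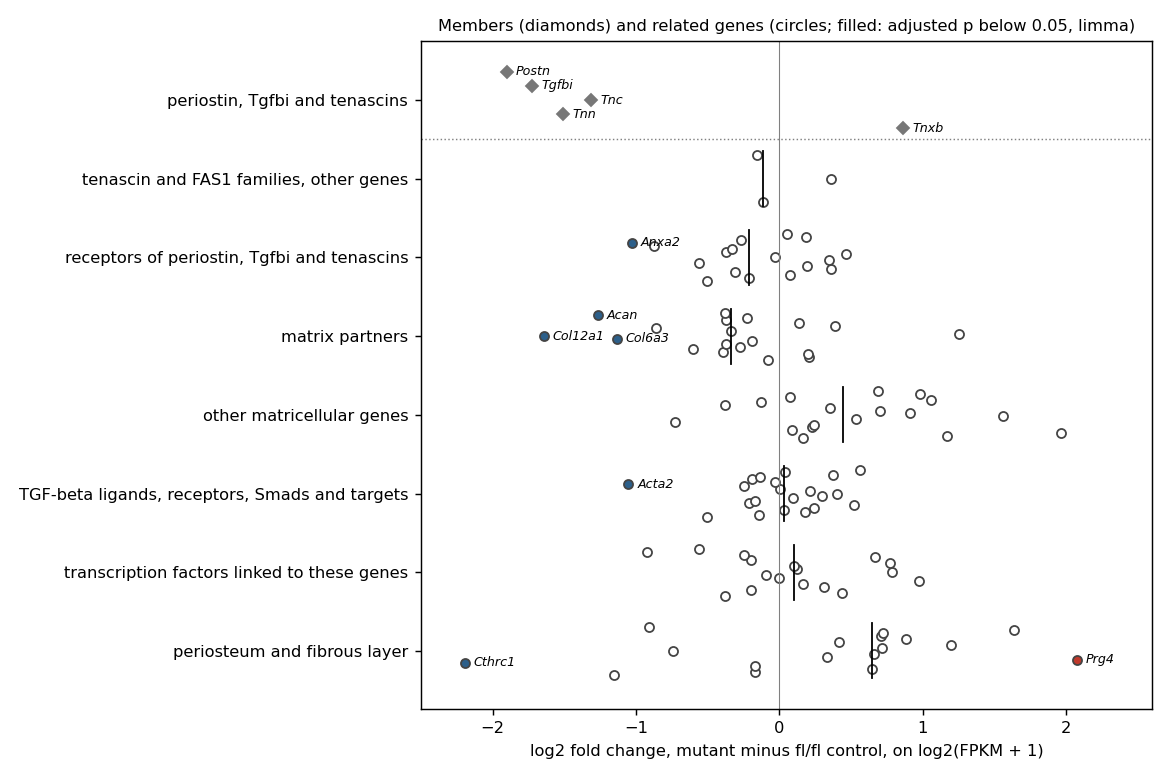
Log2 fold changes (mutant minus fl/fl control, on log2(FPKM + 1)) of the 5 members (grey diamonds, no test) and of related genes by list (circles, filled where the limma adjusted p was below 0.05; black bars, list medians). Postn, Tgfbi, Tnc and Tnn lie at or below -1.31, Tnxb lies at 0.86, and the 7 called related genes are labelled.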

How the data were processed

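Condylar cartilage RNA was extracted with the miRNeasy Mini Kit, amplified with SMART-Seq HT and made into Nextera libraries, per the labels' protocols. Strand is lost in libraries of this kind. The authors' deposited values, 1 table per library, were taken as FPKM: the headers name no unit, values are not whole, column sums differ, and Cufflinks 2.2.1 stands beside TopHat2 2.0.13, Bowtie2 2.2.3, SAMtools 0.1.19 and mm10 in the submitters' processing notes. The sources used here give neither the annotation nor any further scaling. No 2 tables were identical.

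The 18715 genes that reached 1 FPKM in 3 or more libraries were fitted with limma 3.58.1 (R 4.3.3) as log2(FPKM + 1) (trend, robust moderation, group as the only term), and p-values were adjusted by Benjamini-Hochberg over all of them, with a threshold of 0.05. This scale understates changes of low genes. The procedure was tested on simulated data. The members, lists, markers and alternatives were chosen with earlier results of these data known. Named were the members, each list's called genes and its 2 genes of smallest p, the 3 closest genes to each member, and others said to be named after their values were seen. Marker lists also held macrophage, adipocyte, erythroid, Schwann cell and epidermal genes, plotted as sums. Gene positions and overlaps are from GENCODE M21, and promoter windows, matched by symbol for 5 of 5 members, from RefSeq. The precision of 3 libraries per group is the limit of all comparisons.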

Additional observations from a re-analysis of the deposited data

How the results depend on the processing

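The log2 fold changes of the 5 members kept their sign in all 17 alternatives, and most moved by less than the spread between replicates. The exceptions were the muscle covariate for Postn (-2.63), Tgfbi (-1.15), Tnc (-1.85), Tnn (-2.60) and Tnxb (0.34), the Xist covariate for Tnc (-1.54) and Tnxb (0.37), and Tnxb without controls 1 and 2 (0.34). The cause was not tested, and muscle level, which does not overlap between the groups, cannot be told apart from group. The 3 members that passed became 0 with the replicate block, the Xist covariate, the muscle covariate or without controls 1 and 2, and 0 to 3 when 1 library was left out. Among all 111 related genes, of which 7 passed, 3 passed without a filter on low values, 0 with the replicate block, either covariate or without controls 1 and 2, and 1 to 6 when 1 library was left out.

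The 232 genes that passed in all became 411 with quantile normalization, 133 without a filter, 440 with a filter at 5 FPKM, 2 with the replicate block, 2 with the Xist covariate, 2 with the muscle covariate, 5 without controls 1 and 2, and 13 to 414 when 1 library was left out. Whether the replicate numbers pair the libraries is not stated. Deviations from the group means correlated at 0.006, -0.016 and -0.009 between libraries of the same number. These values show no shared deviation over all genes and cannot exclude pairing. Where 1 control is left, it is assumed to vary as the mutants do. Absolute depth is unknown, so no counting error could be given. Values of a few FPKM lie in the range of the olfactory genes, with gene length not taken into account.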
